A study of Homo sapiens with 6 samples.

Results

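Amino acid transporters carry amino acids across cell membranes, and the 10 genes described here are SLC7A5, SLC3A2, SLC7A11, SLC1A4, SLC1A5, SLC7A1, SLC7A6, SLC7A7, SLC38A2 and SLC43A1. The members were every probe set of the Affymetrix HG-U133A array annotated to one of these genes and to no other. All 10 genes, of 11963 with such a probe set, were represented, by 22 of the 22283 probe sets on the array. The cells were HL60, an established human line of promyelocytic leukemia. One group received tretinoin, the retinoid known as all-trans retinoic acid, at 1 μmol/l for 5 days in 0.1% dimethyl sulfoxide (DMSO), and the other received 0.1% DMSO as vehicle for the same 5 days. Both groups were thus exposed to DMSO, and no untreated cells were part of the comparison. There were 3 arrays per group. By the study's own account, the arrays of a group were parallel hybridizations of one pooled labeled product, so that all errors and p-values given below measure the spread between hybridizations and not that between cultures.

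As background, SLC3A2 encodes the heavy chain of CD98, a single-pass glycoprotein that brings several transport proteins to the cell surface. SLC7A5 (LAT1), SLC7A6, SLC7A7 and SLC7A11 (xCT) encode light chains that are joined to this heavy chain by a disulfide bond, and each forms an exchanger with its own substrates. SLC7A1 works without the heavy chain and takes up arginine and lysine, SLC1A4 and SLC1A5 exchange small neutral amino acids and glutamine together with sodium, SLC38A2 takes up neutral amino acids with sodium, and SLC43A1 passes large neutral amino acids along their gradient. Growing cells import amino acids for protein synthesis, and several of these genes are known targets of ATF4, the transcription factor of the amino acid response, and of MYC.

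After tretinoin, 7 of the 10 transporter genes were lower, 1 was higher and 2 did not pass the test. SLC7A5, SLC3A2, SLC1A4, SLC1A5, SLC7A1, SLC38A2 and SLC43A1 fell, SLC7A7 rose, and neither SLC7A11 nor SLC7A6 was called. In counts of probe sets, 20 of the 22 exceeded a scaled signal of 20, the floor of the study, on at least 3 arrays and were tested. Of these 20, 14 were called lower (70.0%) and 1 was called higher (5.0%), against 13.8% lower and 13.6% higher among all 13374 probe sets tested. The members were chosen with earlier results of these data known, so these shares are not a test of the list. SLC1A4 and SLC7A1 each gave 4 of the 14, so the probe sets do not count separate genes. A call required an adjusted p under 0.05 (limma, Benjamini-Hochberg over all probe sets tested) together with a fitted change of 1.5-fold or more. The median log2 fold change was -1.13 over the 20 transporter probe sets and -0.03 over all probe sets tested. The tretinoin and DMSO arrays did not overlap on 15 of the 20, against 46.0% of all probe sets. SLC7A1 206566_at, counted among the 15 and the 14, exceeded 20 on no tretinoin array and on 3 DMSO arrays. Passing the filter on DMSO arrays alone fixed its direction in advance. These are bulk cultures, in which fewer cells with a transcript and less transcript per cell cannot be told apart.

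**Figure D1:**
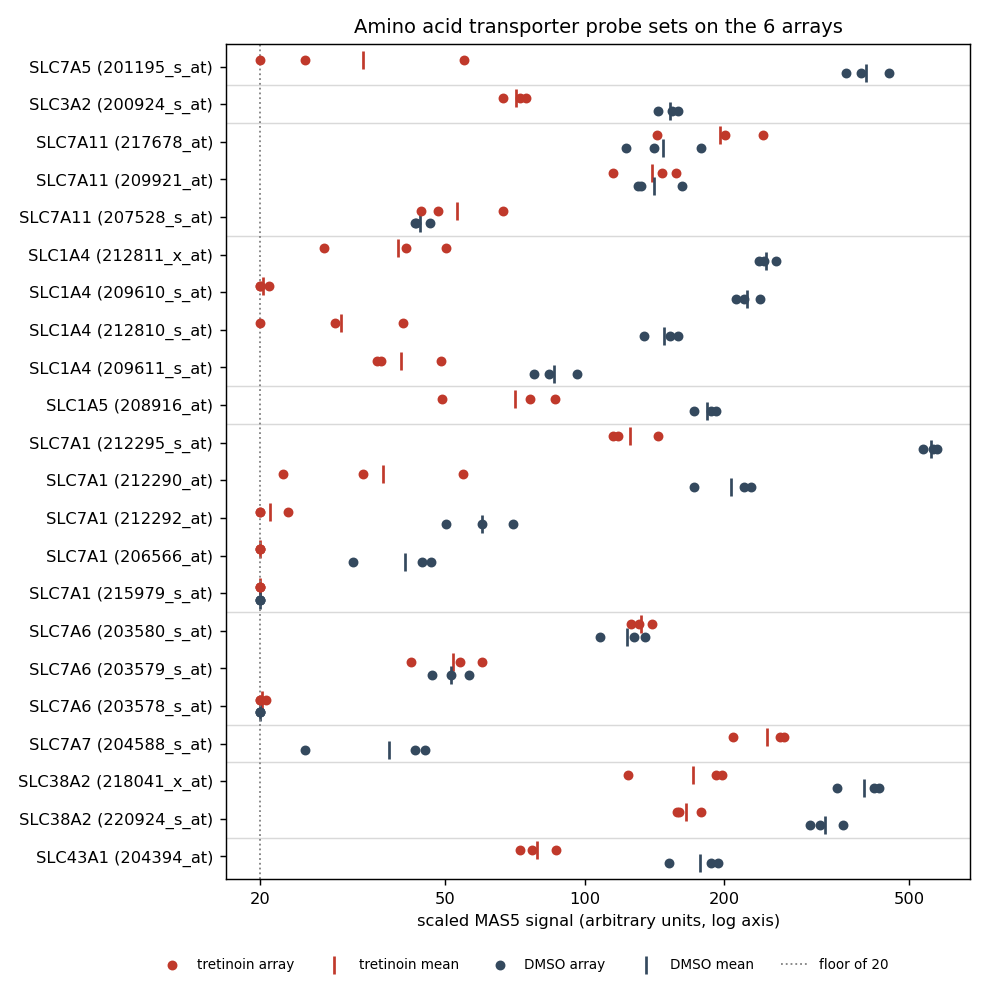
Scaled MAS5 signal (log axis, arbitrary units) of the 22 transporter probe sets on each of the 3 tretinoin and 3 DMSO arrays, with a tick at each group mean and a dotted line at the floor of 20. The tretinoin points of SLC7A5 lie between 20 and 55.1 and its DMSO points between 365 and 451, while the order is turned for SLC7A7.

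In outline, mean signal on the arrays was 91.3 to 132.7 for tretinoin and 121 to 152 for DMSO before scaling, and the factors that brought each array to the mean of DMSO replicate 1 ran from 0.820 to 1.36. After scaling, between 54.9% and 60.1% of probe sets exceeded 20. The identity of the cells was checked on genes of promyelocytes and neutrophils, of which all 9 were measured. The 5 azurophil granule genes MPO, ELANE, PRTN3, CTSG and AZU1 were lower in tretinoin, and ITGAM, CD38, NCF1 and CYBB were higher. ELANE exceeded 20 on no tretinoin array and passed the filter through its DMSO arrays only, which fixed its direction. PRTN3 and CTSG each exceeded 20 on 1 tretinoin array, and CD38 on 1 DMSO array, so the sizes of their changes depend on the floor. Of 8 represented genes of lymphoid, erythroid, stromal and endothelial cells, 6 were tested and none was called, where 27.5% of all probe sets tested were called. The summed signal of the 8 was 294 to 358 on the tretinoin arrays and 304 to 356 on the DMSO arrays. Of the 8, 5 exceeded 20 on every DMSO array, so these values do not show that such cells were absent. The ratio of 3' to 5' signal of the ACTB control probe sets, which reflects how intact the labeled RNA is, was 1.14 to 1.17 in tretinoin and 1.38 to 1.42 in DMSO, and its part in the results below was not tested. For GAPDH this ratio was 1.15 to 1.19 in tretinoin and 1.06 to 1.17 in DMSO.

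Since most of the transporters fell together, the bases before their gene starts were read from RefSeq (GRCh38.p14). The table held 17 windows of 250 bases for 9 of the 10 genes, some genes having several starts, and SLC7A11 was not among them. Both strands were searched for CACGTG, the E-box read by MYC with MAX, for TGATGNAAN, the element read by ATF4 with C/EBP partners, and for TGACNNNGC, the core of the antioxidant response element read by NFE2L2. The E-box stood in 4 of the 17 windows, from SLC7A5, SLC1A5, SLC43A1 and SLC7A7, and in 6.34% of all 35116 windows of this length. The ATF4 element stood in 1 window, from SLC1A5, and in 3.13% of all. Bases after the starts were not searched, so the genes without a match here may hold the element elsewhere. The antioxidant element stood in 5 windows, from SLC3A2, SLC1A5, SLC7A1, SLC7A6 and SLC7A7, and in 10.9% of all. The E-box windows of SLC7A5, SLC43A1 and SLC7A7 and the ATF4 element window of SLC1A5 are shown, 1 window per gene, because they come from 3 genes that fell and from the one that rose. The E-box of SLC1A5 lay 50 to 45 bases before another of its starts, in a window that is not printed. Each is written 5′ to 3′ on the strand of the gene up to the base before its start, with the matched motif in capitals.
SLC7A5, chr16:87869508-87869757, minus strand: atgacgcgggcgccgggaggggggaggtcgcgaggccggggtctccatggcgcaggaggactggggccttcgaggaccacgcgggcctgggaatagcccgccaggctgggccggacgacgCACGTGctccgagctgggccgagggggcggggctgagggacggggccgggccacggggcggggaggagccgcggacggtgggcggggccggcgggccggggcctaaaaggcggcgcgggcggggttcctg
SLC1A5, chr19:46784815-46785064, minus strand: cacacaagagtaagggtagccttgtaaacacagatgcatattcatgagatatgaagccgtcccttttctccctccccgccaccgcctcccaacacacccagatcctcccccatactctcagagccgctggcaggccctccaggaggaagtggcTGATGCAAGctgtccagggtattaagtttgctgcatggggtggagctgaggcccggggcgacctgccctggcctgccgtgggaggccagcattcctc
SLC43A1, chr11:57515703-57515952, minus strand: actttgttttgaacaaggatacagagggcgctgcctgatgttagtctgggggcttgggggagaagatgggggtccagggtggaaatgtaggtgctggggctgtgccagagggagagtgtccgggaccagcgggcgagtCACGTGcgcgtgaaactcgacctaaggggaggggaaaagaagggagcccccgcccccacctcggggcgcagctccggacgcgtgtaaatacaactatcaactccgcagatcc
SLC7A7, chr14:22815872-22816121, minus strand: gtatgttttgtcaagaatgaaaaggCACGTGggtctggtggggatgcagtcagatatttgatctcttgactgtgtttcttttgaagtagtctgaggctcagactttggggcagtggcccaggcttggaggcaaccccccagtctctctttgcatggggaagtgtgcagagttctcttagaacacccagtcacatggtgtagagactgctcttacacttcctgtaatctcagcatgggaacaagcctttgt
The E-box lay 130 to 125 bases before the start of SLC7A5. It lay 112 to 107 bases before the start shown for SLC43A1, whose other window held none. For SLC7A7 it lay 225 to 220 bases before this one of several starts. The ATF4 element, read as TGATGCAAG, lay 97 to 89 bases before this one of several starts of SLC1A5. Matches of different motifs did not overlap each other in the windows of these genes. A match of letters describes the window only. E-box matches occurred before genes that fell and before the gene that rose, and a link between match and change was not tested.

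Among the CD98 light chains, SLC7A5, which carries leucine and other large neutral amino acids, fell to near the floor on its probe set 201195_s_at. Its scaled signal was 55.1, 20 and 25.0 on the tretinoin arrays and 394, 365 and 451 on the DMSO arrays. The 2 groups lay far apart, with the lowest DMSO array 6.63 times the highest tretinoin array. The means were 33.4 ± 19.0 in tretinoin and 403 ± 43.5 in DMSO (SD, n = 3 each), and the fitted change was 13.3-fold (log2 fold change -3.73 ± 0.36, SE, adjusted p = 0.000364). Tretinoin replicate 2 read 15.1 before the floor of 20 was set, so the size depends on the floor, with a log2 fold change of -3.17 with a floor of 40 and of -3.44 without that array. The SE was the largest of the tested members, and tretinoin replicate 1 stood well above the other two. RefSeq lists the pseudogenes SLC7A5P1 and SLC7A5P2, and their share in this signal was not tested.

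SLC3A2, the heavy chain shared by these exchangers, fell as well. Probe set 200924_s_at read 66.8, 72.6 and 74.7 on the tretinoin arrays and 154, 159 and 144 on the DMSO arrays. Both groups were tight and did not overlap, with means of 71.3 ± 4.12 in tretinoin and 152 ± 7.54 in DMSO. The fall was 2.14-fold (log2 fold change -1.10, 95% confidence interval -1.38 to -0.81, adjusted p = 0.000646). This interval does not reach that of SLC7A5, which ran from -4.59 to -2.88, though the difference itself was not tested.

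SLC7A7 was the one member that rose. It encodes the light chain of an exchanger that exports arginine and lysine from cells in return for neutral amino acids and sodium, and inherited loss of it causes lysinuric protein intolerance. Its probe set 204588_s_at read 263, 268 and 209 on the tretinoin arrays and 45.4, 25.0 and 43.2 on the DMSO arrays. All 6 arrays exceeded the floor, and the lowest tretinoin array was 4.61 times the highest DMSO array. The mean was 247 ± 32.6 in tretinoin and 37.9 ± 11.2 in DMSO, a rise of 6.70-fold (log2 fold change 2.74 ± 0.25, adjusted p = 0.000293).

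SLC7A6, a light chain closely related to SLC7A7 that also exchanges arginine for neutral amino acids, was not called on either tested probe set. Its brightest, 203580_s_at, read 126, 140 and 131 in tretinoin and 108, 128 and 135 in DMSO, and these overlap. The 95% confidence interval of the log2 fold change ran from -0.23 to 0.43, which leaves room for a change of up to 1.35-fold. On 203579_s_at the means were 52.2 ± 9.10 in tretinoin and 51.7 ± 4.79 in DMSO, with an interval of -0.40 to 0.40. The remaining probe set, 203578_s_at, exceeded 20 on 1 tretinoin array, at 20.6, and on none of the DMSO arrays, and was not tested. The sign of both tested changes depended on the scaling of the arrays, being negative without it.

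SLC7A11, the light chain of the exchanger that takes up cystine for glutathione synthesis and releases glutamate, was not called on any of its 3 probe sets, all of which were tested. The brightest, 217678_at, read 242, 143 and 201 in tretinoin and 123, 178 and 141 in DMSO. The groups overlap, and tretinoin replicate 2 lay among the DMSO values. The log2 fold change was 0.39 with an interval of -0.17 to 0.94 (adjusted p = 0.261), which includes rises of up to 1.92-fold. On 209921_at the means were 140 ± 21.9 in tretinoin and 141 ± 17.6 in DMSO (interval -0.43 to 0.38). On 207528_s_at they were 53.1 ± 11.9 in tretinoin and 44.3 ± 1.80 in DMSO (interval -0.18 to 0.66). The 5 light chain probe sets that were not called, 3 of SLC7A11 and 2 of SLC7A6, were the only tested members without a call.

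**Figure D2:**
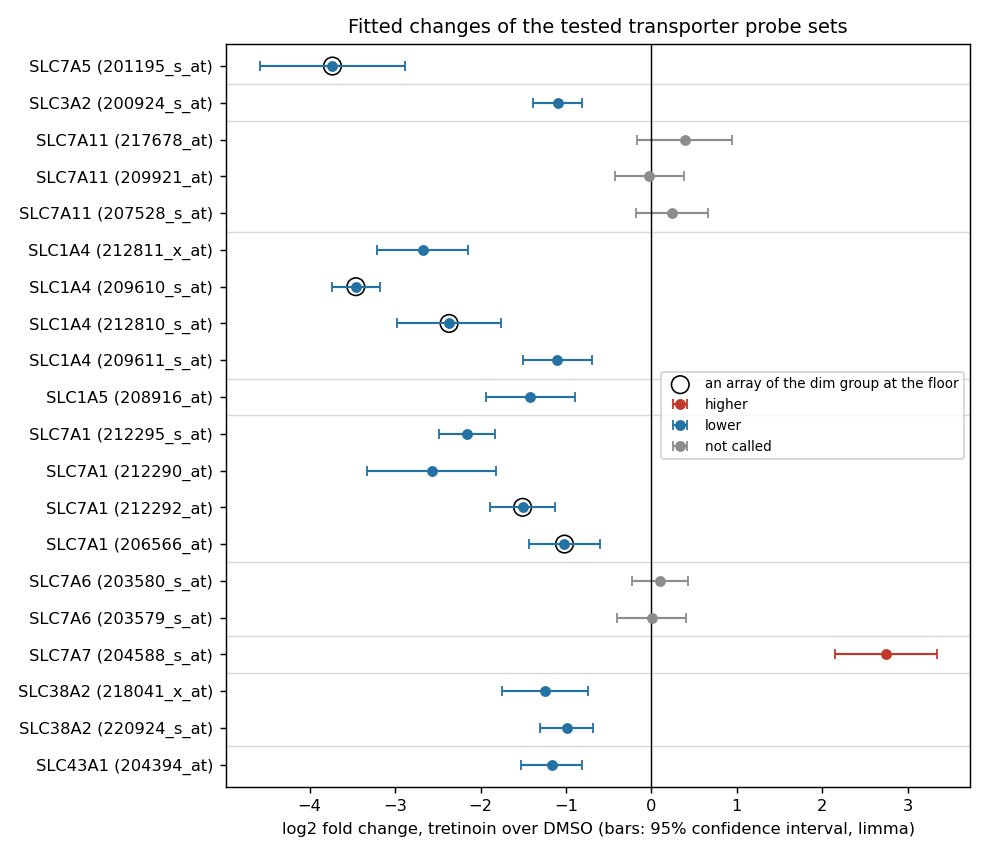
Log2 fold change (tretinoin over DMSO) of the 20 tested transporter probe sets with 95% confidence intervals from limma, blue where called lower, red where called higher and gray where not called. Open circles mark changes in which an array of the dimmer group was set to the floor, and the intervals of SLC7A11 and SLC7A6 span 0 while those of the other 8 genes do not.

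SLC7A1, the main importer of arginine and lysine in many cells, fell on all 4 of its tested probe sets. The brightest, 212295_s_at, read 115, 144 and 118 on the tretinoin arrays and 563, 536 and 572 on the DMSO arrays. The separation was wide against the spread within each group, with means of 125 ± 16.1 in tretinoin and 557 ± 18.8 in DMSO, and the fall was 4.46-fold (log2 fold change -2.16 ± 0.14, adjusted p = 8.27e-05). Probe set 212290_at read 54.8, 22.4 and 33.4 in tretinoin and 220, 228 and 172 in DMSO, a fall of 5.95-fold with a wider interval, from -3.33 to -1.82. On 212292_at, 1 tretinoin array exceeded 20, at 23.0, against 50.3, 60.1 and 70.1 in DMSO, a fitted fall of 2.84-fold with the other two set to 20. On 206566_at, no tretinoin array exceeded 20, against 31.7, 46.8 and 44.7 in DMSO, a fitted fall of 2.02-fold with all 3 set to 20. This probe set passed the filter through its DMSO arrays only, so a fall was the only direction open to it. The calls on these 2 dim probe sets were lost with a floor of 40. The fifth, 215979_s_at, read at most 15.3 on any array and was not tested. SLC7A1 and SLC7A7, which move the same cationic amino acids in opposite directions, thus had changes of opposite sign.

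SLC1A4, an exchanger of alanine, serine, cysteine and threonine, fell on all 4 of its probe sets. On 209610_s_at a single tretinoin array exceeded 20, at 20.9, whereas the DMSO arrays read 220, 212 and 239. The lowest DMSO array was 10.1 times the highest tretinoin array, and the fitted fall, with the other two set to 20, was 11.0-fold (log2 fold change -3.46 ± 0.12, adjusted p = 7.94e-06). With a floor of 40 it was 5.58-fold. The brightest, 212811_x_at, read 41.2, 27.5 and 50.4 in tretinoin and 258, 237 and 243 in DMSO, a fall of 6.39-fold. Probe set 212810_s_at, with 1 tretinoin array set to 20, had a fitted fall of 5.16-fold, to 29.9 ± 10.4 in tretinoin, against 149 ± 13.2 in DMSO. On 209611_s_at the fall was 2.14-fold, with 40.4 ± 7.49 in tretinoin and 85.9 ± 9.31 in DMSO. All 4 thus fell, and the interval of 209611_s_at (-1.51 to -0.69) reaches none of the other 3, though the difference between probe sets was not tested. By the naming of the array, probe sets ending in _s_at hold probes shared by several transcripts and those ending in _x_at hold probes that can bind other sequences as well.

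SLC1A5, an exchanger of glutamine and other neutral amino acids, read 49.3, 76.4 and 86.5 in tretinoin and 172, 192 and 187 in DMSO on 208916_at. The groups did not overlap, and the tretinoin arrays were more spread (70.7 ± 19.2) than the DMSO arrays (184 ± 10.1). The fall was 2.67-fold (log2 fold change -1.42 ± 0.22, adjusted p = 0.00286).

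SLC38A2, a sodium-coupled importer of alanine, glutamine and other neutral amino acids that amino acid starvation is known to induce, fell on both of its probe sets by similar amounts. On 218041_x_at the arrays read 192, 124 and 198 in tretinoin and 350, 419 and 429 in DMSO, a fall of 2.37-fold (adjusted p = 0.0042). On 220924_s_at they read 178, 160 and 158 in tretinoin and 360, 321 and 305 in DMSO, a fall of 1.99-fold (adjusted p = 0.0014). The intervals of the 2 changes, -1.75 to -0.75 and -1.30 to -0.68, overlap.

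SLC43A1, which lets leucine, phenylalanine and other large neutral amino acids pass without sodium or a partner chain, read 77.1, 86.7 and 72.7 in tretinoin and 152, 187 and 194 in DMSO on 204394_at. The groups did not overlap, and the fall was 2.24-fold (log2 fold change -1.17 ± 0.15, adjusted p = 0.00126). Both SLC7A5 and SLC43A1, which share leucine as a substrate, were lower.

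Across the 10 genes, the brightest probe set of each had a median log2 fold change of -1.21. The falls measured above the floor on every array ran from 1.99-fold on SLC38A2 (220924_s_at) to 6.39-fold on SLC1A4 (212811_x_at). The changes of SLC7A5 and of SLC1A4 on 209610_s_at both rested in part on arrays set to the floor, so that no order between them was read. None of the 22 probe sets was among the 90 that the study selected for its signature, so the choice of that signature did not bear on these values. With 3 arrays against 3, an exact permutation test of a single probe set cannot give a p below 0.1, and calls therefore rest on the limma fit across all probe sets.

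Among other amino acid transporters of the plasma membrane, SLC38A1 fell and SLC36A1 rose. Of 32 such genes, 24 had a probe set of their own and 12 were tested. Of the 12, 1 was higher, 1 was lower and 10 were not called, where 27.5% of all probe sets tested were called. The median log2 fold change of the 12 was -0.23. The 10 that were not called were dim, with group means of at most 76.6 (SLC7A4, DMSO). SLC1A1, SLC1A2, SLC1A3, SLC16A10 and SLC38A3 had tretinoin arrays set to 20, so their fitted changes depend on the floor. The one that fell was SLC38A1, a close relative of SLC38A2 that takes up glutamine, at 202 ± 18.8 in tretinoin and 568 ± 22.1 in DMSO (2.81-fold, adjusted p = 0.00024). The one that rose was SLC36A1, a proton-coupled carrier of small amino acids found on lysosomes and at the cell surface, at 150 ± 26.0 in tretinoin and 56.5 ± 15.6 in DMSO (2.71-fold, adjusted p = 0.0042). Of 11 carriers of mitochondria and lysosomes, 8 were tested and 2 were called, a share near that of all probe sets. SLC25A15, the mitochondrial ornithine carrier, fell 3.71-fold with its tretinoin arrays, none above 20, set to that floor, against 75.0 ± 14.2 in DMSO. It passed the filter through its DMSO arrays only, which fixed its direction. SLC15A3, a lysosomal carrier of histidine and peptides, rose 3.48-fold, to 73.3 ± 6.43 in tretinoin, and exceeded 20 on 1 DMSO array, the others being set to 20.

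**Figure D3:**
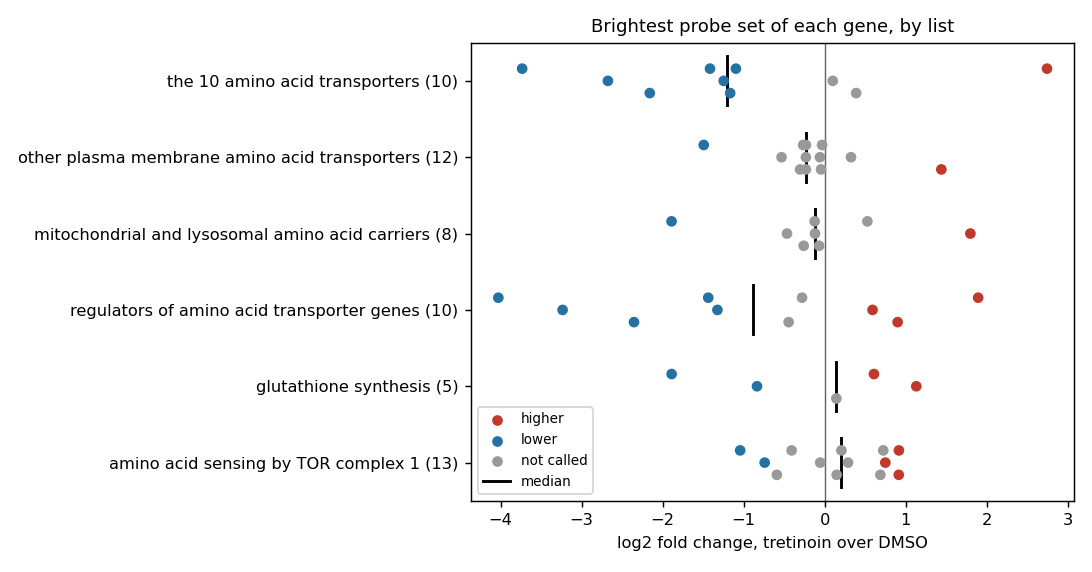
Log2 fold change (tretinoin over DMSO) of the brightest probe set of each tested gene in 6 lists, with the number of genes in brackets and a black bar at each median. Red points were called higher, blue lower and gray not called, and the 10 transporters have their median at -1.21 with SLC7A7 alone at the far right.

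Of 10 tested regulators of transporter genes, 5 were lower and 3 were higher (median log2 fold change -0.88), beside 13.8% lower and 13.6% higher among all probe sets tested. TRIB3, a pseudokinase induced by ATF4, fell 9.41-fold, to 62.3 ± 16.2 in tretinoin, against 574 ± 73.6 in DMSO. ATF5, a relative of ATF4, fell 5.11-fold, and MYC fell as well (log2 fold change -4.03). The other two that fell, named after their values were seen, were ATF4 itself, 2.50-fold lower at 863 ± 207 in tretinoin and 2122 ± 60.3 in DMSO, and CEBPG, its partner, 2.71-fold lower. CEBPB, a C/EBP factor of myeloid cells, rose 3.72-fold, and BACH1, a repressor at antioxidant response elements, rose 1.87-fold. NFE2L2, the activator at those elements and a known regulator of SLC7A11, rose 1.51-fold, close to the minimum for a call. Without scaling of the arrays the calls of BACH1 (1.62-fold) and NFE2L2 (1.31-fold) were lost, and that of NFE2L2 also with trimmed mean scaling (1.48-fold). SLC7A5, SLC3A2, SLC1A4, SLC1A5, SLC7A1, SLC38A2 and SLC43A1 were thus lower in the same arrays in which ATF4 and MYC were lower. In those arrays SLC7A11 and SLC7A6 were not called and SLC7A7 was higher. Whether any of these changes are linked was not tested.

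Glutathione is made with cysteine, which SLC7A11 supplies as cystine. Among 5 tested genes of glutathione synthesis and turnover, 2 were higher and 2 were lower. The shares among all probe sets tested were 13.6% higher and 13.8% lower. GCLC, the catalytic subunit of the first enzyme of the pathway, rose 2.19-fold to 139 ± 1.55 in tretinoin, against 63.5 ± 2.65 in DMSO, and GSR, which reduces glutathione, rose 1.52-fold. CHAC1, which breaks glutathione down, fell 3.70-fold with tretinoin signals set to the floor, and GSS, the second enzyme of synthesis, fell 1.78-fold. CHAC1 passed the filter through its DMSO arrays only, which fixed its direction. Of 13 tested genes by which TOR complex 1 senses amino acids, 3 were higher, 2 were lower and 8 were not called (median log2 fold change 0.21), where 13.8% of all probe sets tested were lower and 13.6% higher. Those that rose were LAMTOR2 (1.89-fold) and LAMTOR5 (1.68-fold), of the lysosomal anchor of the complex, and SESN1 (1.89-fold), of the sestrin family that inhibits it. NPRL2, of an inhibitory complex, fell 2.06-fold and RHEB, the GTPase that activates the kinase, fell 1.67-fold. Of these rises, those of GSR (1.32-fold, adjusted p = 0.288), LAMTOR2 (1.64-fold, 0.0505), LAMTOR5 (1.46-fold, 0.16) and SESN1 (1.64-fold, 0.0815) did not pass in limma without scaling, and that of GSR was also lost with trimmed mean scaling.

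The calls of the members were compared under other settings of scaling, floor, filter, variance and arrays. The sign of every called member was the same in each setting in which it was tested, and 5 probe sets with arrays at the floor were not tested in all of them.

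**Figure D4:**
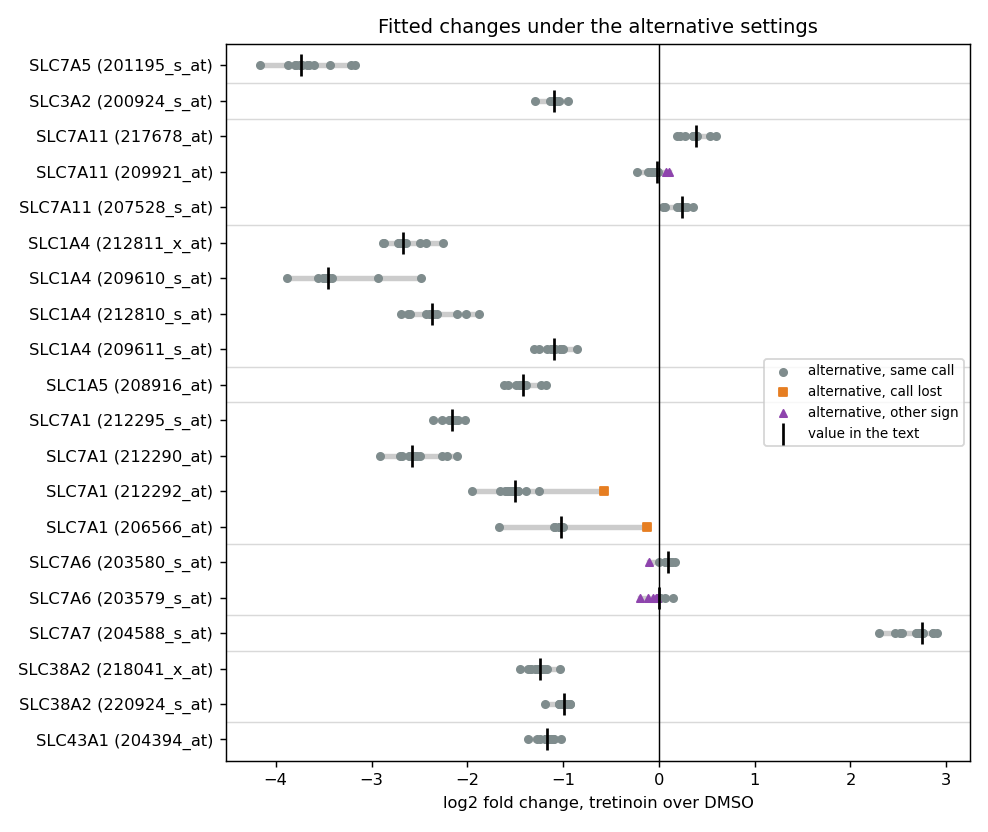
Log2 fold change (tretinoin over DMSO) of the 20 tested transporter probe sets under each alternative setting (points), with a gray bar over their range and a black tick at the value in the text. Orange squares mark the 2 SLC7A1 probe sets whose calls were lost with a floor of 40, and purple triangles mark changes of sign, all on SLC7A11 and SLC7A6 probe sets that were not called.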

How the data were processed

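Expression in tretinoin and DMSO cultures of HL60 was measured on 6 Affymetrix HG-U133A arrays. The values deposited by the authors are linear MAS5 signal intensities per probe set, before the scaling and the baseline of 20 that their methods describe. Here a factor per array equalized the mean signal to that of the first DMSO array, a floor of 20 was applied, and a group-means model was fitted to log2 intensities in limma 3.58.1 under R 4.3.3, with moderated variances. Probe sets above 20 on at least 3 arrays were tested. Folds are 2 to the power of the fitted log2 difference, where an array of the dimmer group was set to 20 the fold depends on that floor, and intervals are at 95%. The fit was tested on simulated data in which only bright probe sets were changed, so calls on dim members were not covered by it.

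Of 22283 probe sets, 19071 had a single gene symbol in the platform annotation, 1043 had several and 2169 had none. Symbols were updated by gene number through RefSeq, where all 10 were found. All probe sets of the 10 genes are named. From other lists, up to 3 called genes per direction with the largest change are named, on their brightest probe set. The members and lists were chosen with earlier results of these data known. Same-numbered arrays shared only a number (correlations of their deviations -0.027, -0.014 and 0.066). Figures used Python 3.11.15 and matplotlib 3.10.9. The number of arrays limits the precision. By the study's account the arrays of a group shared a pooled labeled product, so the spread between cultures was not measured.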

Additional observations from a re-analysis of the deposited data

How the results depend on the processing

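The count of transporter probe sets called lower stayed at 14 and that called higher at 1 with no scaling, median, trimmed mean or quantile scaling, a floor of 10, an offset of 16, no filter, trend and robust variances, and no fold minimum. With replicate number as a block, 14 and 1 transporter probe sets were called, and 1758 lower and 1743 higher among all probe sets, so the block changed no member's call. A floor of 40 left 12 lower, since SLC7A1 206566_at (log2 fold change -0.13) and 212292_at (-0.58) were lost, and a floor of 10 gave -1.67 for 206566_at. Requiring a signal above 20 on all 6 arrays left 9 of 15 tested transporter probe sets lower, because fewer were tested, and a minimum of 2-fold left 13. Leaving out each array gave 13 to 14 lower and 1 higher, and over all probe sets 1521 to 1967 lower and 1442 to 1734 higher. Without any one DMSO array, 19 transporter probe sets were tested and 13 were lower, since SLC7A1 206566_at no longer passed the filter.

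Over all probe sets, the 1824 higher and 1850 lower calls (49.6% higher) became 1142 and 2312 (33.1% higher) without scaling, where the median log2 fold change of all was -0.21 in place of -0.03, and 1012 and 860 with a minimum of 2-fold. SLC7A6 changed sign without scaling (203580_s_at -0.10, 203579_s_at -0.20). Its 203579_s_at was also negative with trimmed mean scaling (-0.022), and ran from -0.11 to 0.15 as each array was left out, negative without tretinoin replicate 1, tretinoin replicate 2 or DMSO replicate 3. SLC7A11 209921_at was positive without tretinoin replicate 2 (0.11) or DMSO replicate 3 (0.08). Tretinoin signals set to 20 limit the size of the changes on SLC7A5 201195_s_at, SLC1A4 209610_s_at and 212810_s_at, and SLC7A1 212292_at and 206566_at.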
